A study of Mus musculus with 19 samples.

Results

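The genes C1qa, C1qb and C1qc encode the A, B and C chains of C1q, the recognition molecule of the classical complement pathway. They were chosen by their processed signals across the strains and weeks of these same samples, so their levels are given here as a description and carry no test. Each gene had 1 probe on the array, which makes 3 genes of 27597 gene names and 3 probes of 41174.

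C1q is assembled from chains of all 3 kinds, each with a collagen-like tail and a globular head. The heads bind antibody in immune complexes, C-reactive protein and the surface of dying cells, and the tails carry the proteases C1r and C1s, which go on to cleave C4 and C2. Unlike most complement proteins, which hepatocytes secrete, C1q is made chiefly by macrophages, dendritic cells and some monocytes.

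The study followed blood leukocytes of male DBA/2 and C57BL/6J (B6) mice after CAWS administration, that is, intraperitoneal injection on consecutive days of a mannoprotein and beta-glucan complex from the culture supernatant of Candida albicans, which brings on inflammation of the coronary arteries and aorta. All groups had received CAWS, since 0 w was set right after the last injection, and no untreated mouse was among the samples analysed here. Leukocytes were captured from whole blood of the mice that survived to 2, 4, 8 or 9 w, and their RNA was hybridised to single-colour Agilent arrays. DBA/2 mice had 2 samples at each of the 5 times, and B6 mice had 2 at 0 w, 4 w and 8 w and 1 each at 2 w and 9 w, which gave 18 RNA samples in 10 groups. The RNA of B6 0 w replicate 2 was run on 2 arrays, which were averaged and counted as 1 sample. The labels call the samples biological replicates and do not say how many mice went into one, so p-values measure only the spread between these samples. The characteristics also tag DBA/2 2 w replicate 2 as a technical replicate, which its title does not; the title was followed, so whether DBA/2 2 w holds independent samples is uncertain. That group is in none of the contrasts against 0 w and entered their fit only through the shared estimate of spread. Groups after 0 w hold survivors only, and mouse age is given as 1 range for the whole study. Between 33.9 and 51.4% of the spots of an array were well above background.

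The 3 genes lie next to each other on mouse chromosome 4, minus strand. In the mm8 build used by the files, the C1qb probe spans chr4:136152739-136152798, the C1qc probe chr4:136161927-136161986 and the C1qa probe chr4:136168570-136168629. They are thus 9188 bases (C1qb to C1qc) and 6643 bases (C1qc to C1qa) apart. The files pair them with the RefSeq transcripts NM_009777, NM_007574 and NM_007572, and which exon each probe covers was not worked out, since no annotation of that build was used.

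RefSeq promoter sequences were matched by symbol for 2 of the 3 chains, C1qb and C1qc, and are shown because these neighbours gave quite different signals. Each is the 250 bases before the start of the gene in GRCm38.p6, read 5′ to 3′ on the minus strand, chr4:136886201-136886450 for C1qb and chr4:136892915-136893164 for C1qc. Capitals mark GAGGAA, a purine box of the kind bound by PU.1 (the product of Spi1), also as its reverse complement.
C1qb: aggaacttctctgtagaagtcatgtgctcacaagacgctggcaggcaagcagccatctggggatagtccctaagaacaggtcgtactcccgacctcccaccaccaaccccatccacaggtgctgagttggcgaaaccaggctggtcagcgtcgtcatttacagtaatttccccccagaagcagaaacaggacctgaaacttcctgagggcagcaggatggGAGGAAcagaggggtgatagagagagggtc
C1qc: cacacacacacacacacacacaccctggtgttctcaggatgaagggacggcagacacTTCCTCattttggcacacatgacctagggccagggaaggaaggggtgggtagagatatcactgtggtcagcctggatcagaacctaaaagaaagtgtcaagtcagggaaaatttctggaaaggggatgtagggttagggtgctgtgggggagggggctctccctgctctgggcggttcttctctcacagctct
The C1qb sequence held 1 GAGGAA, 30 to 25 bases before the start. The C1qc sequence held 1 GAGGAA on the opposite strand, 193 to 188 bases before the start. Of 32851 RefSeq promoters of the same length, 23.3% held GAGGAA on either strand. The core of the interferon-stimulated response element, found in 2.98% of them, was in neither sequence. Such matches describe letters and are not evidence of binding.

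The A and C chains varied together with week and strain, whereas the probe that the files assign to the B chain took another course. In DBA/2 mice C1qa and C1qc stood highest at 4 w, and in B6 mice neither was well above background at 4 w. C1qb stayed within a narrow range of group means, and in DBA/2 mice from 0 w to 8 w it differed more between the arrays of a week than between weeks. The sequence of this probe was not used here, and whether its signal measures the C1qb transcript was not tested, so each value given for C1qb, and each mean of the 3 chains, holds only as far as that assignment does. In whole leukocyte RNA, fewer cells of a type and less RNA per cell cannot be told apart.

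C1qa, the A chain, had processed signals of 46.2 and 21.0 in the DBA/2 samples of 0 w, the second of them not well above background. Those of 4 w were 205 and 208. Scaled to the 75th percentile of each array, the normalized log2 values were -3.37 and -4.51 at 0 w, -3.70 and -3.87 at 2 w, -1.25 and -1.21 at 4 w, -2.35 and -2.43 at 8 w, and -2.64 and -2.69 at 9 w. All 6 DBA/2 values from 4 w on lay above all 4 of 0 w and 2 w. This is a description, since such values chose the gene and the share of all probes so separated is not given here. The group mean at 4 w was 2.71 above that of 0 w on the log2 scale, which is 6.56-fold, and the means at 8 w and 9 w were 2.93-fold and 2.42-fold above it. In B6 mice C1qa read -2.47 and -2.67 at 0 w, -3.75 at 2 w, -3.80 and -3.73 at 8 w, and -2.77 at 9 w. Both B6 samples at 4 w read -6.56, with processed signals of 2.87 and 2.99, and neither was well above background. Measured against the lowest signal that was well above background on those arrays, C1qa was at least 4.58-fold lower at 4 w than at 0 w, at least 2.02-fold lower than at 2 w and at least 3.98-fold lower than at 9 w.

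C1qc, the C chain, followed the same course at a different height. Its normalized log2 values in DBA/2 mice were -3.88 and -3.12 at 0 w, -3.24 and -3.15 at 2 w, -0.82 and -0.82 at 4 w, -1.86 and -2.07 at 8 w, and -2.36 and -2.62 at 9 w. Processed signals behind the 0 w values were 32.4 and 55.1, and those behind the 4 w values 276 and 272. The mean at 4 w was 2.68 above that at 0 w, or 6.41-fold, and the means at 8 w and 9 w were 2.89-fold and 2.02-fold above it. As for C1qa, no DBA/2 sample from 4 w on overlapped those of 0 w and 2 w, which is likewise a description without a share over all probes. In B6 mice C1qc read -1.16 and -1.09 at 0 w, -2.24 at 2 w, -2.18 and -2.05 at 8 w, and -1.39 at 9 w. The B6 values of 4 w were -6.20 and -6.80, from processed signals of 3.68 and 2.54 that were not well above background. Its level there was at least 12.5-fold lower than in B6 mice at 0 w and at least 15.4-fold lower than in DBA/2 mice at 4 w. For C1qa the last of these bounds was 11.6-fold.

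C1qb, the B chain, was well above background on every array. In DBA/2 mice it read 0.10 and 1.07 at 0 w, 0.03 and 1.22 at 2 w, -0.03 and 1.00 at 4 w, -0.27 and 0.90 at 8 w, and -0.25 and 0.08 at 9 w. In B6 mice it read -0.15 and 0.21 at 0 w, -0.07 at 2 w, 0.05 and 0.19 at 4 w, -0.30 and -0.57 at 8 w, and -0.05 at 9 w. The lower value of every DBA/2 week thus lay within the span of the B6 samples. Over the 10 groups the means of C1qb spanned 1.06 log2 units, against 5.33 for C1qa and 5.68 for C1qc. At 4 w, where C1qa and C1qc were not well above background in B6 mice, C1qb gave processed signals of 280 and 323 there.

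**Figure D1:**
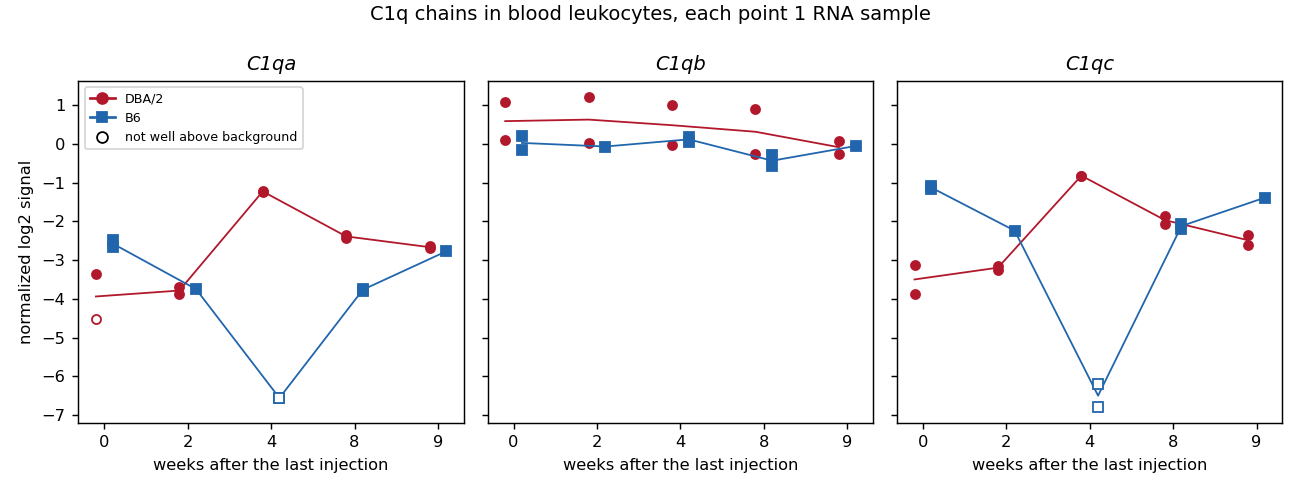
Normalized log2 signal of the 3 chains (vertical axis) against weeks after the last injection (evenly spaced categories), with 1 point per RNA sample, lines through the group means, circles for DBA/2 and squares for B6; open symbols were not well above background. C1qa and C1qc peak at 4 w in DBA/2 mice (-1.23 and -0.82) and are lowest at 4 w in B6 mice (-6.56 and -6.50), while the means of C1qb stay between -0.43 and 0.63.

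Ordered by group mean, C1qa ran from DBA/2 4 w (-1.23 ± 0.03, SD, n = 2) through DBA/2 8 w, B6 0 w, DBA/2 9 w, B6 9 w, B6 2 w, B6 8 w, DBA/2 2 w and DBA/2 0 w to B6 4 w. Neighbours from DBA/2 8 w to B6 9 w differed by less than the pooled SD of 0.30 between replicates, as did those from B6 2 w to DBA/2 0 w. DBA/2 4 w stood 1.16 above the next group. C1qc ran from DBA/2 4 w (-0.82 ± 0.0007) through B6 0 w, B6 9 w, DBA/2 8 w, B6 8 w, B6 2 w, DBA/2 9 w, DBA/2 2 w and DBA/2 0 w to B6 4 w, with a pooled SD of 0.26. Here DBA/2 8 w, B6 8 w, B6 2 w and DBA/2 9 w were neighbours within that SD. For C1qb every neighbour in the order differed by less than its pooled SD of 0.57.

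Averaged over 4 w and 8 w and set against 0 w, the comparison used for the gene lists below, C1qa was higher by 2.13 and C1qc by 2.11 on the log2 scale in DBA/2 mice, and C1qb was lower by 0.19 (-0.19). The mean of the 3 chains was higher by 1.35. In B6 mice the same contrast gave -2.59 for C1qa, -3.18 for C1qc and -0.18 for C1qb, with a mean of -1.99; these include 4 w, where neither C1qa nor C1qc was well above background, and so give no bound. The strain difference of these changes was 4.72 for C1qa, 5.29 for C1qc and -0.01 for C1qb. The B6 side of it rests in part on 0 w and 8 w, whose samples also held strong hepatocyte signals (below). The sign for C1qb was not stable. In DBA/2 mice it turned to 0.295 without 0 w replicate 2, and its strain difference turned to 0.033 under scaling over all probes. C1qa in DBA/2 mice was 1.56 without 0 w replicate 2, and C1qc was 1.73 without 0 w replicate 1. All comparisons of a strain share its 0 w samples.

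The arrays lay on 6 slides. The DBA/2 samples of 0 w to 8 w lay on 2 slides, replicate 1 on slide 2 and replicate 2 on slide 5, so that the change with week can be read within each slide. No B6 sample lay on these slides. Levels compared directly between strains from 0 w to 8 w, such as those at 4 w above, therefore cross slides, and strain and slide cannot be told apart there. From 0 w to 4 w, C1qa was higher by 2.12 on slide 2 and by 3.31 on slide 5, and C1qc by 3.06 and 2.30. At 8 w these differences were 1.02 and 2.09 for C1qa and 2.02 and 1.04 for C1qc. The slides differed most at 0 w, where C1qa was 1.15 lower on slide 5 and C1qc 0.76 higher. The mean of C1qa and C1qc, an average formed after seeing the data, rested less on one sample and was 2.59 and 2.80 higher at 4 w, and 1.52 and 1.57 higher at 8 w. In B6 mice, slide 3 held 0 w, 2 w and 4 w, where C1qa read -1.28 at 2 w and -4.09 at 4 w relative to 0 w. On slide 1, which held the second array of 0 w replicate 2, C1qa stood at -3.87 at 4 w, -1.04 at 8 w and -0.08 at 9 w relative to 0 w, and C1qc at -5.63, -0.89 and -0.22.

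C1qb behaved otherwise between slides. Its value on slide 5 exceeded that on slide 2 by 0.97 (0 w), 1.19 (2 w), 1.03 (4 w) and 1.17 (8 w), while C1qa and C1qc differed between these slides by at most 0.22 from 2 w on. Within slides 2 and 5, C1qb differed from 0 w to 4 w by -0.14 and -0.07, and from 0 w to 8 w by -0.37 and -0.18. The widest such difference was in B6 mice on slide 1, where C1qb read -0.92 at 8 w relative to 0 w. Of 22902 probes measured in all 8 of these samples, 416 (1.82%) were higher on slide 5 by at least 0.97 at every one of these weeks and 7 were lower by as much. The replicate number and the slide cannot be told apart in these samples.

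The probes whose course was most like that of C1qb were searched after these values were seen. Over the 18 samples the nearest were Olfr693, an olfactory receptor, with a Pearson r of 0.989, Dhrsx with 0.989, A630091E08Rik with 0.986 and Klc2, a kinesin light chain, with 0.984. Tnp2, a sperm chromatin protein, and Gpr142 were also among the 10 highest. All 10 of these genes belonged to the 416 probes set apart by slide. The cut for the 416 was the smallest slide difference of C1qb itself. Genes picked for likeness to C1qb were therefore likely to pass it, and this overlap adds no support. At DBA/2 4 w, Olfr693 had a processed signal of 950.4 on slide 2 and of 2734 on slide 5. None of the 10 genes most like the mean of C1qa and C1qc was among the 416, which likewise follows largely from how they were picked. These correlations share slide, labelling and hybridisation, and none of their causes was tested.

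**Figure D2:**
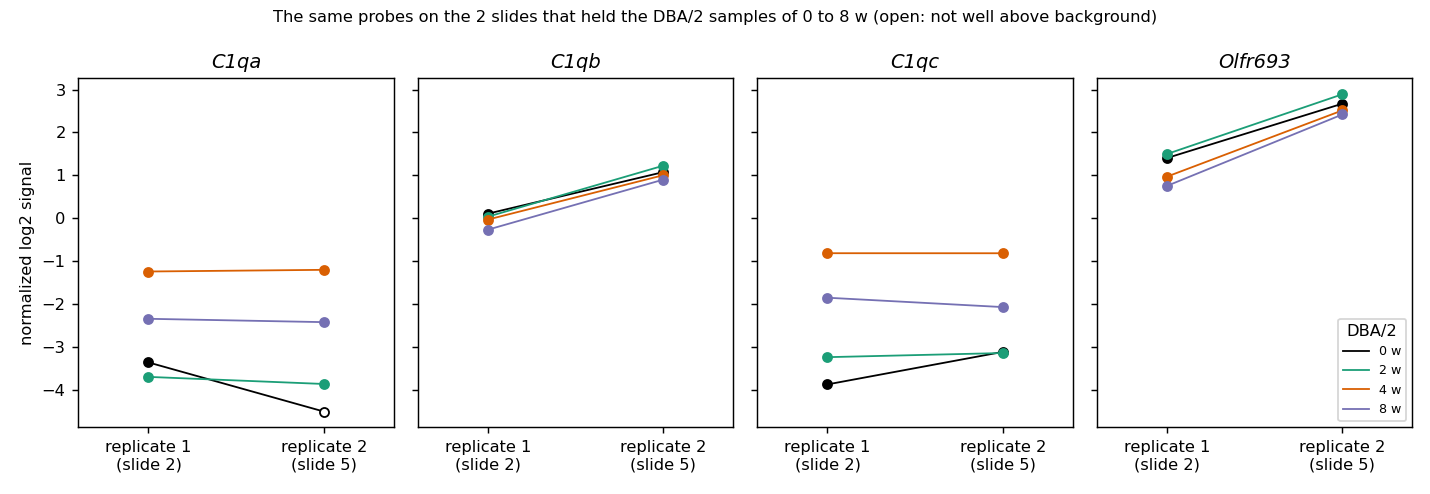
Normalized log2 signal (vertical axis) of the 3 chains and of Olfr693 in the DBA/2 samples of 0, 2, 4 and 8 w, with replicate 1 (slide 2) joined to replicate 2 (slide 5) of the same week; open symbols were not well above background. C1qb and Olfr693 are higher on slide 5 at every week, by 0.97 to 1.19 for C1qb, whereas C1qa and C1qc stand highest at 4 w and next at 8 w on both slides.

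C1qa and C1qc kept a different distance in the strains. The distance between unlike probes has no meaning by itself, because probes differ in brightness, but its change between samples of a strain can be compared. Between strains it also rests on each probe matching both strains alike, which was not checked. C1qc minus C1qa was 1.31 and 1.58 in the B6 samples at 0 w, 1.51 at 2 w, 1.61 and 1.68 at 8 w and 1.39 at 9 w. In DBA/2 mice it was 0.46 and 0.72 at 2 w, 0.43 and 0.39 at 4 w, 0.49 and 0.35 at 8 w, and 0.28 and 0.07 at 9 w. The 6 B6 samples in which both were well above background (1.31 to 1.68) did not overlap the 9 such DBA/2 samples (-0.51 to 0.72). The remaining DBA/2 sample, 0 w replicate 2, read 1.39, with C1qa not well above background. Being derived from the values that chose the genes, this difference was not tested.

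**Figure D3:**
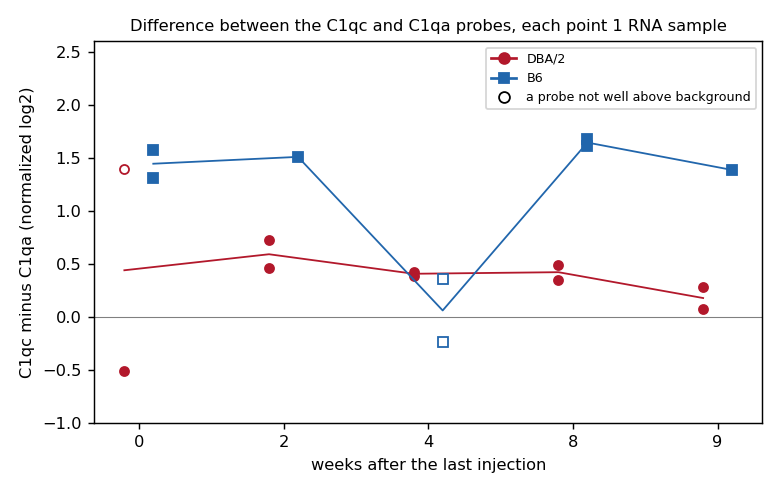
C1qc minus C1qa on the normalized log2 scale (vertical axis) against weeks after the last injection (evenly spaced categories), with 1 point per RNA sample and lines through group means; open symbols mark samples in which a probe was not well above background. With both probes measured, B6 samples sit at 1.31 to 1.68 and DBA/2 samples at or below 0.72.

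Across samples, C1qa and C1qc had a Pearson r of 0.90 and a Spearman rho of 0.87 over the 10 DBA/2 samples. Over the 6 B6 samples other than 4 w these were 0.98 and 0.89. Pooled over the 16 samples other than B6 4 w they were 0.74 and 0.67. C1qb had an r of -0.26 with C1qa and -0.05 with C1qc in DBA/2 mice, but of 0.61 and 0.60 in the 6 B6 samples other than 4 w. These values describe genes chosen together and carry no p.

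The proteins that act with C1q in the cascade were examined next. C3 and C4b rose in DBA/2 mice and no other partner passed the test. Of 10 classical pathway partners listed, 7 were measured well enough to be tested, and 2 rose and 0 fell at 4 w and 8 w against 0 w; over all probes 9.80% rose and 13.1% fell (limma, Benjamini-Hochberg adjusted p below 0.05). The list's median log2 change was -0.22, against -0.14 over all probes tested. C3, the convergence point of all complement pathways, read 0.05 and 0.05 at 0 w, 1.86 and 1.82 at 4 w, and 2.59 and 2.54 at 8 w. It rose by 2.15 (SE 0.06, adjusted p = 1.03e-07, limma) with no overlap between weeks. C4b, whose product C1s cleaves, read -2.99 and -2.98 at 0 w, 0.24 and 0.23 at 4 w, and -1.53 and -1.58 at 8 w, and rose by 2.33 (SE 0.24, adjusted p = 0.000256, limma). Like C1qa and C1qc it was highest at 4 w, with 1 of its 9 w spots left out as an outlier, while C3 was highest at 8 w. Without DBA/2 4 w replicate 2, 4 of the 7 passed. C3 and C4 were among the genes the study picked from these samples, so their rise is not independent evidence. The changes of C1ra (-0.04, adjusted p = 0.919), the C1r protease, C2 (-0.22, adjusted p = 0.679) and C4bp (-0.33, adjusted p = 0.688), which codes for a chain of the C4b-binding protein, did not pass. A second probe of C1ra, well above background in 6 samples, changed by 1.42 (adjusted p = 0.12). C1s1 and Serping1, the inhibitor of C1r and C1s, were measurable in B6 mice alone, at 0 w and 8 w, and C4a and C1s2 in no sample. No probe carried the name C1rb.

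In B6 mice 0 of these 7 partners rose and 4 fell, where 7.28% of all probes rose and 7.73% fell. C1s1 and Serping1 entered the 7 only through B6 0 w and 8 w, where they were measurable. Their fall from 0 w was thus in part set by the filter and adds no support. C3 fell by 0.97, and the fitted changes of C4b, Serping1 and C1s1 were -1.92, -1.75 and -1.71. The last 3 were not well above background at 4 w. For C3, C4b and Serping1 this contrast averages weeks that went opposite ways. The group means of C3 were 2.57 at 0 w, 0.08 at 4 w and 3.14 at 8 w. C4b stood at -1.40 at 0 w and -0.97 at 8 w, and Serping1 at -3.11 and -2.80, so that these genes were higher at 8 w than at 0 w in group mean, while C1s1 was lower (-3.99 and -4.44). The list's median was -0.97, against -0.08 over all probes. Without 0 w replicate 1, and likewise without replicate 2, 2 of the 7 passed. At 0 w and 8 w, and at no other time, B6 samples also held strong hepatocyte signals. The 11 tested hepatocyte markers averaged -0.33 and -0.32 at 0 w and -0.89 and -0.82 at 8 w, with 9 to 11 of them well above background, against -6.64 to -4.61 in every other sample. Alb, the albumin gene, was at least 402-fold higher at 0 w than at 4 w. The hepatocyte list itself had 0 risers and 7 fallers in this comparison, and its part in the complement results was not tested. In B6 mice several of its genes, such as Apoa1 and Apob, were well above background only at 0 w and 8 w. The filter thus in part set the direction of such genes. C1qa and C1qc read -2.77 and -1.39 in the 1 sample of B6 9 w, where the hepatocyte mean was -5.68. What part of their signals at 0 w and 8 w came with liver RNA was not tested.

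A comparison free of those samples, added after seeing the data, set B6 4 w against the mean of 2 w and 9 w. C1qa was at least 2.84-fold and C1qc at least 7.75-fold lower at 4 w. C4b was at least 10.7-fold lower and C3 fell by 0.74, so 2 of the 7 partners fell and 0 rose, against 8.86% and 5.06% of all probes. B6 mice had 1 sample at 2 w and 1 at 9 w, each assumed to vary like the other groups.

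By main probe, the strain difference of the changes from 0 w passed for 2 partners, C3 at 3.12 (SE 0.08, adjusted p = 1.37e-07, limma) and C4b at 4.25 (SE 0.35, adjusted p = 0.000152, limma). Second, dimmer probes of C1ra and C4bp passed as well, while their main probes did not (values under other observations). Of all probes, 6.48% differed toward DBA/2 mice and 6.73% toward B6 mice. Without DBA/2 4 w replicate 1, 4 partners passed. The value for C4b includes the B6 4 w group, which was not well above background, and is no bound.

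The lectin pathway is started by molecules that bind sugars where C1q binds antibody. Of 6 such molecules and their proteases tested, 2 rose and 1 fell in DBA/2 mice, where 9.80% of all probes rose and 13.1% fell. Fcna, ficolin A of macrophages, read -4.80 and -5.74 at 0 w, -1.87 and -1.94 at 4 w, and -3.22 and -3.00 at 8 w, and rose by 2.76 (SE 0.26). Its strain difference of 5.10 passed, with the B6 4 w samples not well above background. The study picked Fcna from these samples as well. Colec12 rose by a fitted 1.77 from a 0 w group not well above background, which is at least 1.13-fold. It was not well above background in any B6 group, so it passed the filter through later DBA/2 samples. Its rise was thus in part set by the filter. Mbl2, a mannose-binding lectin of hepatocytes, fell by a fitted 2.26 (-2.26) to levels not well above background. In B6 mice 0 rose and 3 fell, among them Mbl2 at -3.49, beside 7.28% and 7.73% of all probes.

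C1q receptors and binding proteins included 7 risers and 1 faller among 15 tested in DBA/2 mice, where 9.80% of all probes rose and 13.1% fell. Itgam and Itgb2, the chains of complement receptor 3, rose by 1.42 and 0.78. Cd93, once described as a C1q receptor of phagocytes, rose by 0.86, and Scarf1, an endothelial and myeloid scavenger receptor that binds C1q, by a fitted 1.16, at least 1.92-fold from a 0 w group not well above background. In B6 mice 3 rose, with Cd93 at 1.16, and 1 fell, beside 7.28% and 7.73% of all probes. The strain difference passed for 3 of the 15, all toward DBA/2 mice as in 6.48% of all probes, among them Itgam at 1.06 and Itgb2 at 0.70, and it did not for Cd93 (-0.30, adjusted p = 0.0644).

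Of the 16 tested other genes with a C1q domain, 2 rose and 1 fell in DBA/2 mice, which is near the shares over all probes (9.80% and 13.1%). Emilin2, an extracellular matrix protein, rose by 1.66 and Emilin1 by 0.53, and Mmrn2, of endothelial cells, fell by 1.16. In B6 mice 3 rose and 0 fell, among them Emilin1 at 1.08, beside 7.28% and 7.73% of all probes. Emilin2 and Mmrn2 were the 2 genes of the list whose change differed between the strains, by 1.20 and -1.91. Over all probes, 6.48% differed toward DBA/2 mice and 6.73% toward B6 mice.

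Of 5 transcription factors known to act on C1q genes, 2 rose in DBA/2 mice and 0 fell. Over all probes 9.80% rose and 13.1% fell. Spi1, which codes for PU.1, a factor of myeloid cells, read -5.86 and -6.32 at 0 w, -4.66 and -5.03 at 2 w, -4.54 and -4.57 at 4 w, -4.22 and -4.40 at 8 w, and -4.45 and -4.36 at 9 w. All its later DBA/2 samples lay above those of 0 w, with no peak at 4 w. It rose by a fitted 1.66 (at least 1.35-fold, since neither 0 w sample was well above background), and in B6 mice it was well above background in 1 sample, at 8 w. Spi1 thus passed the filter through later DBA/2 samples, so its rise was in part set by the filter. Spic, a factor of red pulp macrophages, read -4.13 and -4.19 at 0 w, -3.31 and -3.66 at 4 w, and -2.85 and -2.68 at 8 w in DBA/2 mice. It rose by 1.03, and its strain difference did not pass (0.39, adjusted p = 0.542). Irf8, a factor of monocytes and dendritic cells, changed by -0.08 (adjusted p = 0.535), the liver X receptor gene Nr1h3 by 0.32 (adjusted p = 0.679) and Ppard by -0.45 (adjusted p = 0.601), none of which passed. In B6 mice 0 of the 5 rose and 1 fell, Irf8 by 0.30, beside 7.28% and 7.73% of all probes.

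At 4 w alone, where C1qa and C1qc peaked, a comparison added after seeing the data found 7.58% of all probes higher and 7.24% lower than at 0 w in DBA/2 mice. C4b rose by 3.22, Fcna by 3.37 and C3 by 1.79. Of the transcription factors 1 rose, Spi1 by a fitted 1.53 (at least 1.24-fold), and the change of Spic (0.67, adjusted p = 0.14) did not pass.

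**Figure D4:**
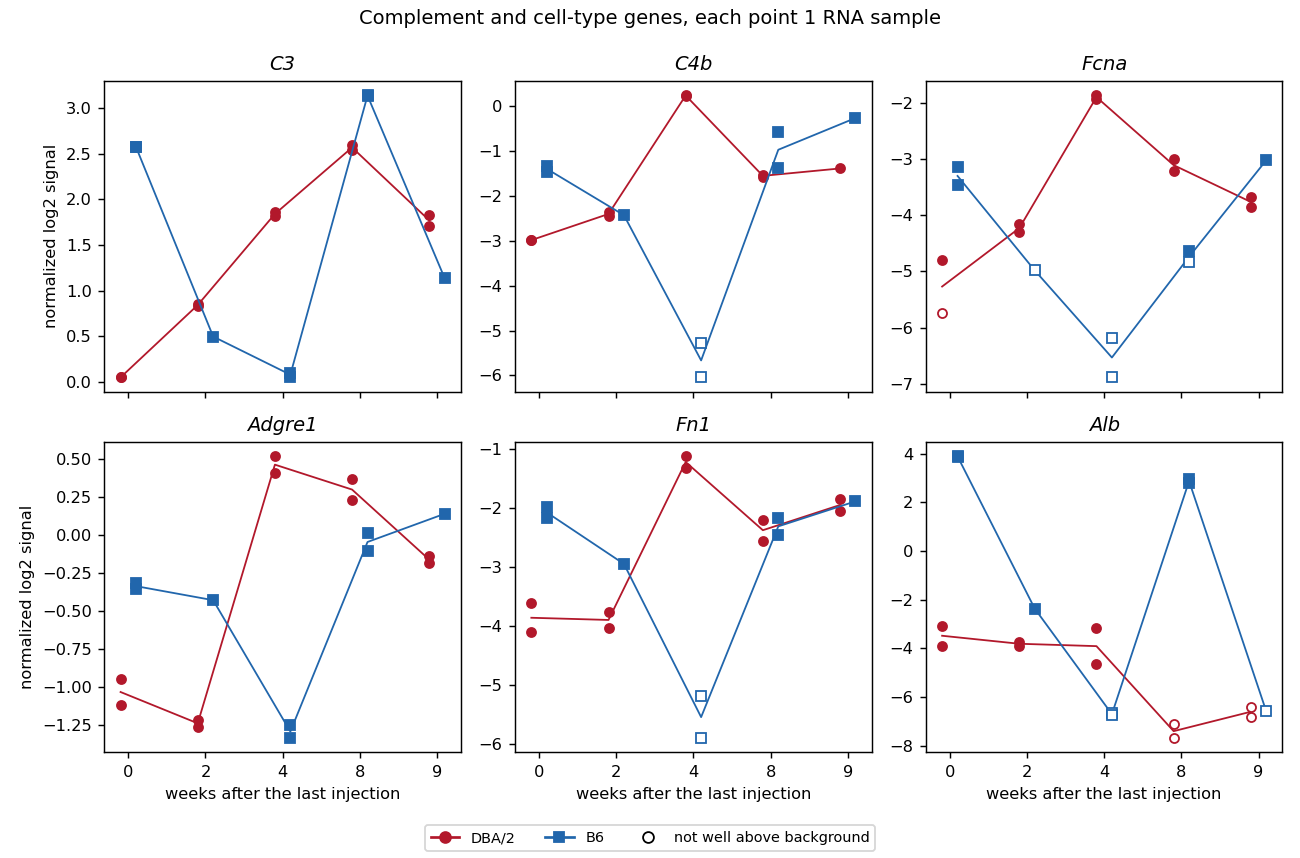
Normalized log2 signal (vertical axes, each panel on its own scale) of C3, C4b, Fcna, Adgre1, Fn1 and Alb against weeks after the last injection (evenly spaced categories), with 1 point per RNA sample, lines through group means and open symbols where the probe was not well above background. C4b, Fcna and Fn1 are highest at 4 w in DBA/2 mice among the DBA/2 groups and not well above background at 4 w in B6 mice, and Alb is high in B6 mice at 0 w and 8 w only.

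Of 12 tested tissue macrophage markers, 7 rose and 0 fell in DBA/2 mice, with a median change of 1.11 against -0.14 over all probes. Of all probes 9.80% rose and 13.1% fell. Cd163, the haemoglobin scavenger receptor, was well above background in both 4 w samples (-3.46 and -3.58) and in 1 of 2 at 8 w, and at neither 0 w sample. Its rise at 4 w was at least 2.53-fold. Cd163 was well above background in 4 of 18 samples and passed the filter largely through DBA/2 4 w and 8 w. Its rise was thus in part set by the filter and adds no support to the count of 7. Slc40a1, the iron exporter ferroportin, rose by 1.69, Hmox1, which degrades heme, by 1.63 and Adgre1, the F4/80 antigen, by 1.41. The mean level of the 12 was -3.57 and -3.51 at 0 w and -2.28 and -2.23 at 4 w. In B6 mice 2 markers rose and 5 fell against 0 w, and 0 rose and 6 fell at 4 w against 2 w and 9 w. Over all probes 7.28% rose and 7.73% fell in the first comparison, and 5.06% and 8.86% in the second. The count of 7 in B6 mice against 0 w was 2 without 0 w replicate 2, 3 without 0 w replicate 1 and 4 without 8 w replicate 2. Strain differences passed for 6, all toward DBA/2 mice as in 6.48% of all probes, with Adgre1 at 1.75, Hmox1 at 1.34 and Cd163 at a fitted 3.28. Of the defining markers of resident macrophages, Vcam1, Mertk, Axl and Siglec1 were well above background in 0 of 18 samples, and Vsig4 and Mrc1 in 1 each. Spic stands in this list and among the transcription factors, and Timd4, Mertk and Axl also stand among the clearance genes.

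Blood monocyte markers had 9 risers and 0 fallers of 11 tested in DBA/2 mice, and a median change of 1.06. Of all probes 9.80% rose and 13.1% fell. Cd14, a co-receptor for lipopolysaccharide, rose by 2.21, Fn1, fibronectin, by 2.06, Ly6c1 by 1.65 and Ccr2, the receptor that lets monocytes leave the marrow, by 1.63. Their mean level was -0.44 and -0.38 at 0 w, 0.66 and 0.76 at 4 w, and 0.73 and 0.85 at 8 w. In B6 mice 3 rose and 1 fell against 0 w, and 1 rose and 6 fell at 4 w against 2 w and 9 w, Fn1 being at least 5.08-fold lower there. Over all probes 7.28% rose and 7.73% fell in the first comparison, and 5.06% and 8.86% in the second. The strain difference was toward DBA/2 mice for 8 of the 11 and toward B6 mice for 1, beside 6.48% and 6.73% of all probes. The part of monocyte or macrophage number in the levels of C1qa and C1qc was not tested.

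All 9 tested neutrophil markers rose in both strains, with medians of 2.06 in DBA/2 and 2.15 in B6 mice, S100a8 by 2.44 and 2.23 and S100a9 by 2.24 and 2.15. Over all probes 9.80% rose and 13.1% fell in DBA/2 mice, and 7.28% and 7.73% in B6 mice. The counts that follow are for DBA/2 mice. Camp rose by 2.55 and Ltf by 2.45 in DBA/2 mice. Dendritic cell markers had 1 riser, Itgax at 0.79, and 1 faller, Ccr7 at -0.54, of 6; a second Itgax probe changed by -0.03. T cell markers had 0 risers and 4 fallers of 7, among them Cd247 at -0.61 and Cd3d at -0.55, and B cell markers 0 and 3 of 5, among them Pax5 at -0.92 and Cd79b at -0.66. Of 11 apoptotic cell clearance genes, Cd300lf (1.67) and Pros1 (0.33) rose and Elmo1 (-0.65) fell. Hepatocyte markers had 1 riser, Fabp1 at a fitted 1.20, and 1 faller, Alb at a fitted -2.17, of 11 in DBA/2 mice, with 2 to 4 of them well above background in each DBA/2 sample. Of liver sinusoidal endothelial markers 0 rose and 1, Stab2 at -0.48, fell of 6, and of 5 tested heart muscle markers 0 rose and 0 fell, with Myh6 not well above background in any sample.

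Genes were also ranked by likeness to the mean of the 3 chains, each centred on its own mean, without regard to function. Over the 18 samples the 10 highest were Prg4 (Pearson r 0.963), Fam20a (0.926), Ddost (0.925), Fcna (0.921), Plxdc2 (0.907), Retnla (0.905), Fn1 (0.901), Cgnl1 (0.892), Cables1 (0.890) and Gramd1b (0.889). Prg4, which codes for lubricin, read -2.10 and -2.33 in DBA/2 mice at 0 w, 0.30 and 0.20 at 4 w, and -1.48 and -1.66 at 8 w. In B6 mice Prg4 was well above background at every time but 4 w, where its processed signals were 5.11 and 5.35. These correlations lean on the B6 4 w samples, which lie apart from the others. Some of the genes were dim: Cables1 was well above background in 8 of the 18 samples, Fam20a and Cgnl1 in 11. Ddost and Gramd1b were so in all 18. Without the B6 4 w samples the 10 highest were led by Fcna (0.923), Il4 (0.890), Prg4 (0.867) and Plxdc2 (0.836). Cd163 (0.801) was among them, though well above background in only 4 of the 18 samples. Over the 10 DBA/2 samples alone the highest were Lbp (0.948), Soat1 (0.947), Sorl1 (0.945), Il4 (0.942), Ptprc (0.942), Sult1a1 (0.940), Gnai3 (0.939), Ier2 (0.937), Cbr2 (0.933) and Tmem273 (0.933). Of the 18 samples, Lbp was well above background in 6, Tmem273 in 7, Cbr2 in 9 and Sult1a1 in 10, and the others in all 18. The correlations of these dim genes rest in part on values near background. With the mean of C1qa and C1qc as the reference, a choice made after seeing the data, the DBA/2 list was led by Ier2 (0.987) and Tmem273 (0.984). For the mean of the 3 chains, ranks by Spearman correlation shared 5 of the 10 genes over all samples and 1 of 10 in DBA/2 mice. For the mean of C1qa and C1qc they shared 5 and 3.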

How the data were processed

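Total RNA of leukocytes was labelled with Cy3 and hybridised to single-colour Agilent arrays by the authors, 1 array per sample except for the repeated one, on 6 slides. The deposited scanner files hold intensity values of each spot, background-subtracted by the authors with Agilent Feature Extraction 9.5.3.1 per the file headers, with a surrogate in place of the lowest values and no normalization between arrays; no reads were counted, and the number of samples limits the precision. The authors' deposited value table, also intensity, was used only as an alternative. The label protocol speaks of RNA pooled from patients, which cannot describe these mice, and was set aside.

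Control spots and outlier spots were left out, spots of a probe averaged, and log2 of the processed signal was set relative to the 75th percentile, in each array, of those 11536 probes that every one of the 19 arrays measured well above background. Of 41174 probes, 22939 that were well above background in at least 2 of 18 samples were fitted over the 10 groups with limma 3.58.1 (R 4.3.3), with Benjamini-Hochberg adjustment over all of them at 0.05. Figures and descriptions were made with Python 3.11 tools. The fit was tested on simulated data with known changes.

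The main probe of a gene was the brightest over the samples. Named were all classical pathway partners and transcription factors, up to 4 genes of each other list with the largest change among those past the threshold, defining markers without a measurable level, and the 10 genes most like the chains. The members and lists were chosen with earlier results of these data known; 2 listed genes are not reported here and were left out of the counts of their lists. A fold from a group not well above background is given as a bound against the higher of its own signal and the lowest signal well above background on each array. The mean of C1qa and C1qc, likeness to it and to C1qb, and the comparisons at 4 w alone were added after seeing the data. Alternatives were other scalings, background correction, filters, a floor, blocks, single strains and leaving out each sample. Arrays of a slide had a consensus correlation of 0.40. Gene names were updated through RefSeq, for 24375 probes by accession and 2426 by synonym.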

Additional observations from a re-analysis of the deposited data

Results flagged for a closer look

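C1qa and C1qc moved in opposite directions at 4 w in the strains: every DBA/2 sample lay above those of 0 w and both B6 samples below. The mean change from 0 w in DBA/2 mice exceeded that in B6 mice by 6.70 for C1qa and by 8.05 for C1qc on the log2 scale. This difference was not tested, because these values chose the genes, and it includes B6 4 w samples not well above background. The B6 0 w samples that it starts from held strong hepatocyte signals.

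Among the named genes of the lists, the change at 4 w and 8 w against 0 w differed between DBA/2 and B6 mice, by the interaction term of the limma fit, for the following. Complement genes were C3 (3.12), C4b (4.25) and Fcna (5.10). Receptor and C1q-domain genes were Itgam (1.06), Itgb2 (0.70), Emilin2 (1.20) and Mmrn2 (-1.91). The transcription factor gene Spi1 differed by 1.66, and the clearance gene Elmo1 differed by -0.60. Tissue macrophage markers were Cd163 (3.28), Hmox1 (1.34) and Adgre1 (1.75), and monocyte markers Cd14 (0.89), Fn1 (3.91), Ly6c1 (1.71) and Ccr2 (0.95). The remaining differences were those of Itgax (1.14), Ccr7 (-0.32), Camp (-2.03), Cd79b (-0.47), Alb (3.63) and Fabp1 (7.45). Other probes did not always follow. A second Itgax probe, well above background in all 18 samples, differed by 0.14 (adjusted p = 0.892, limma). Other Fn1 probes differed by 2.51, which passed, and by 0.91 (adjusted p = 0.0744, limma). Those of Elmo1 did not pass, while second probes of Itgam, Emilin2 and Ly6c1 passed in the same direction. Positive values are differences toward DBA/2 mice. Those of C4b, Fcna, Spi1, Cd163, Fn1, Camp, Alb and Fabp1 rest in part on groups in which the probe was not well above background, so they give no bound. All the listed differences rest in part on B6 0 w and 8 w, the groups with strong hepatocyte signals. The part of hepatocyte RNA in them was not tested. No group held enough samples to be searched for a single sample far from the rest.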

How the results depend on the processing

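The mean of the 3 chains kept its direction in every comparison and alternative. Its changes of 1.35 in DBA/2 mice, -1.99 in B6 mice and their difference of 3.34 became 0.65, -0.69 and 1.35 under normexp background correction with an offset of 50, which raises every low signal. With a floor at the lowest signal well above background, the B6 value and the difference were -1.40 and 2.75. Leaving out 1 sample at a time gave 1.25 to 1.45, -2.02 to -1.95 and 3.24 to 3.43. The sign of C1qb turned in 12 cases. Its DBA/2 value ran from -0.67 to 0.295 and its strain difference from -0.49 to 0.48 when 1 sample was left out. That value turned positive without DBA/2 4 w replicate 1 (0.07), 8 w replicate 1 (0.10) or 0 w replicate 2 (0.295). The strain difference turned positive under scaling over all probes (0.033) or to the median (0.025), with array 2 of B6 0 w replicate 2 alone (0.064), and without B6 8 w replicate 1 (0.06), B6 0 w replicate 1 (0.17), B6 4 w replicate 2 (0.03), DBA/2 4 w replicate 1 (0.25), DBA/2 8 w replicate 1 (0.29) or DBA/2 0 w replicate 2 (0.48).

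Probes called numbered 5246 in DBA/2 mice, 3445 in B6 mice and 3029 for the strain difference. Under normexp they were 586, 179 and 90, without a filter on dim probes 3056, 1632 and 1260, and without 1 sample 3069 to 5592, 1709 to 3747 and 1804 to 3230. With B6 mice fitted alone 2121 were called. Classical pathway partners called in B6 mice, 4 in all, were 1 under normexp and 2 with the floor or a filter at 9 of 18 samples. Without 1 sample they were 2 to 4 in DBA/2 mice, 2 to 5 in B6 mice and 2 to 4 for the strain difference, which was 4 under quantile normalization. Tissue macrophage markers called in B6 mice, 7 in all, were 3 under normexp, 4 without the filter, 3 with B6 mice fitted alone and 2 to 7 without 1 sample. In DBA/2 mice they ran from 6 to 8 and for the strain difference from 6 to 7 without 1 sample, and the latter was 3 under normexp. With the replicate block the probes called were 6568, 4766 and 4199, and it moved no count by more than 1.5 times. The labels give no shared source to a replicate number. The correlation of replicate differences between groups was positive in all 28 pairs of groups, from 0.02 to 0.41, and over 0.1 in 14. In DBA/2 mice from 0 w to 8 w the number marks the slide. The main fit took no pairs, so any effect shared by a replicate number or slide stayed in its spread. The causes of these shifts were not tested, apart from the fewer samples or probes in some. Dim signal limits C1qa and C1qc, neither of which was well above background at B6 4 w.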

Other observations

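Probes of 1 gene did not always move together. The main probe of C1ra differed between the strains by -0.02 and its second probe, well above background in 6 of 18 samples, by 3.49 (adjusted p = 0.0230, limma). For C4bp these values were 0.46 and 2.70 (adjusted p = 0.0473, limma), with the second probe well above background in 4 samples. A second probe of Fn1 rose in DBA/2 mice by 1.43 and another changed by 0.57 (adjusted p = 0.0814, limma), against 2.06 for the main probe. Other probes of Dock1, a guanine exchange factor of engulfment, rose by 1.28 and 1.09 in DBA/2 mice, where the main probe changed by 0.10 and did not pass. These genes were chosen after their values were seen, as were the following.

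Cd5l, a macrophage protein that travels with IgM, changed at 4 w and 8 w against 0 w by 1.19 in DBA/2 mice (adjusted p = 0.0617, limma) and fell by 2.03 in B6 mice. At 4 w alone it rose by 1.85 in DBA/2 mice, and in B6 mice its change at 4 w against the mean of 2 w and 9 w was -2.96. Clec4f, a marker of Kupffer cells, was well above background in 3 of 18 samples, and its fitted change in B6 mice was -1.73. In B6 mice it was measurable only at 0 w (mean -3.73) and 8 w (mean -4.18), the times with strong hepatocyte signals. Whether Kupffer cell RNA added to C1qa and C1qc there was not tested. The fall of Clec4f from 0 w was in part set by the filter on dim probes and adds no support.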
